A study of Oryzias latipes with 8 samples.

Results

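Collagens of bone and cartilage matrix were followed in axial tissue of Japanese medaka (*Oryzias latipes*) through the 3 collagen genes that the study paired with an Ensembl identifier, of 18064 genes in the counts. These were *col1a* (ENSORLG00000017013), *col2a1* (ENSORLG00000012738) and *col10a1* (ENSORLG00000013436), taken by identifier from the study's qPCR primer list, and all 3 passed the filter on low counts. They were chosen with earlier results of these data known. RNA was sequenced from 8 libraries at 14 days post fertilization (dpf), 4 from larvae kept in 0.1% dimethyl sulfoxide (DMSO), the solvent, and 4 from larvae kept in 1.0 µM triphenyl phosphate (TPhP), an organophosphate flame retardant and plasticizer, in DMSO. The solvent was thus shared by both groups. Embryos of the inbred orange-red Hd-dR strain were exposed from 4 to 6 hours post fertilization, in 4 dishes per treatment, and each library was made from 15 to 20 larvae pooled together. Axial tissue was obtained by passing hatched larvae through a needle and trimming away head and abdominal tissue, so that muscle, skin and nerve could remain beside the skeleton. Markers of those tissues were not analysed here, since no table used here pairs them with an identifier.

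Collagens are triple helices of protein chains and form the scaffold on which skeletal tissue is built. Type I collagen, the product of *col1a* genes, is the main fiber of bone matrix and is also made in skin, fin and ligament. Type II collagen, the product of *col2a1*, is the main fiber of cartilage and of the notochord sheath. Type X collagen, the product of *col10a1*, marks hypertrophic chondrocytes in mammals, and in medaka it is made by osteoblast progenitors and immature osteoblasts as well as by chondrocytes. The supplementary list names the type I gene only as *col1a*, without saying which chain it encodes, and it was not placed on the genome here. By symbol, RefSeq's annotation of the medaka assembly ASM223467v1 placed *col2a1a* on chromosome 5 (10252767 to 10305223) and *col10a1* on chromosome 24 (21444770 to 21449998). Gene lengths spliced to the mature transcript were not used here, so levels are compared between libraries for one gene and never between genes.

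Total counts ran from 46561277 to 51501685 per library. TMM factors, which scale each library to a common composition, were 0.847 to 1.00 in the DMSO libraries and 1.02 to 1.21 in the TPhP libraries. A principal component analysis set 2 libraries apart from the rest of their group. TPhP replicate 1 lay at −33.8 on the first component, among the DMSO libraries at −37.3 to −20.0 and away from TPhP replicates 2 to 4 at 29.8 to 62.2. DMSO replicate 4 lay at −59.6 on the second component, where the other DMSO libraries lay at 10.0 to 42.0. Both libraries were kept, and fold changes, ratios and differences scaled to *rpl13a* were also computed without them. Genes that mark skeletal cells were read in every library, with at least 172 counts of *runx2* and 308 of *sp7*, which encode transcription factors of osteoblasts, and at least 927 of *sox9a*, which encodes a transcription factor of chondrocytes.

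Of the collagens, *col2a1* had the largest fold change with TPhP treatment, at about 4 times its DMSO level, and *col1a* and *col10a1* had overlapping treatments. With all 8 libraries, edgeR called none of the 3 and DESeq2 called *col2a1* alone. A gene was called where its fold change exceeded 1.5 and its p, adjusted over all genes by the Benjamini-Hochberg procedure, was under 0.05. In the quasi-likelihood test of edgeR with all 8 libraries, 0 of the 3 collagens and 0 of the 15893 genes tested (0%) were called, while 1 collagen, *col2a1*, and 2582 genes (16.2%) had an unadjusted p under 0.05. DESeq2 called 1 of the 3 collagens and 618 genes (3.82%). The 3 log2 fold changes were all above 0, with a median of 0.68, against a median of 0.018 over all genes tested. In pooled larvae, a difference in the number of cells that make a collagen and a difference in its RNA per cell cannot be told apart.

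Expression of the cartilage and notochord gene *col2a1* was 30.6, 37.8, 63.7 and 73.0 CPM (reads scaled to the TMM-normalized library size) in DMSO replicates 1 to 4. In TPhP replicates 1 to 4 it was 81.5, 271, 162 and 308 CPM. Every TPhP pool had more *col2a1* than every DMSO pool, but the lowest TPhP pool and the highest DMSO pool lay close together. These were TPhP replicate 1, with 4195 reads, and DMSO replicate 4, with 3672. Groups that separated in this direction were seen for 3.57% of all genes tested. Mean expression was 51.3 ± 20.3 CPM (SD, n = 4) in DMSO pools and 205 ± 103 (SD, n = 4) in TPhP pools. The log2 fold change of *col2a1* was 2.00 (standard error 0.43, 95% confidence interval 1.04 to 2.97), with an unadjusted p of 0.00102 and an adjusted p of 0.164 from edgeR. By unadjusted p, *col2a1* ranked 79 among the 15893 genes, and 0.774% of genes had a log2 fold change as high or higher.

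The call for *col2a1* depended on the test and on TPhP replicate 1. DESeq2, the tool named in the study's methods, called *col2a1* higher over all 8 libraries (log2 fold change 1.99, adjusted p = 0.00030), as it did 2.79% of genes. Without TPhP replicate 1, edgeR called *col2a1* higher at a log2 fold change of 2.26 (standard error 0.34, adjusted p = 0.00677), and 5.86% of genes were called higher in that fit. Leaving out DMSO replicate 4 instead gave 2.19 and an adjusted p of 0.0928. With both libraries left out the log2 fold change was 2.47 (adjusted p = 0.00220), where 7.51% of genes were called higher.

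Expression of the bone matrix gene *col1a* was 1316, 1177, 1030 and 474 CPM in DMSO replicates 1 to 4. The TPhP replicates 1 to 4 had 727, 1714, 1070 and 2232 CPM. The groups overlapped, with TPhP replicates 2 and 4 above every DMSO pool and TPhP replicate 1 below DMSO replicates 1 to 3. DMSO replicate 4 was the lowest of all 8 pools. At its highest, in TPhP replicate 4, *col1a* took 0.232% of all counts. The log2 fold change was 0.52 (standard error 0.39, 95% confidence interval −0.35 to 1.39, edgeR adjusted p = 0.532), an interval that holds both no difference and a change of more than 2-fold. It was 0.74 without TPhP replicate 1 (adjusted p = 0.201) and 0.26 without DMSO replicate 4 (adjusted p = 0.698). Leaving out TPhP replicate 4 lowered it to 0.23.

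Expression of *col10a1*, the gene shared by young osteoblasts and chondrocytes, was 436, 429, 328 and 88.2 CPM in DMSO replicates 1 to 4. In the TPhP pools, replicates 1 to 4, it was 327, 644, 369 and 715 CPM. TPhP replicates 2 and 4 were above all DMSO pools, TPhP replicates 1 and 3 were within their range, and DMSO replicate 4 stood well below every other pool. Its log2 fold change was 0.68 (standard error 0.46, 95% confidence interval −0.34 to 1.70, edgeR adjusted p = 0.489). The size of this difference rested in large part on DMSO replicate 4, since without it the log2 fold change was 0.34 (95% confidence interval −0.31 to 0.99, adjusted p = 0.540). Without TPhP replicate 1 it was 0.84 (adjusted p = 0.279), and without both libraries 0.51 (adjusted p = 0.167).

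**Figure D1:**
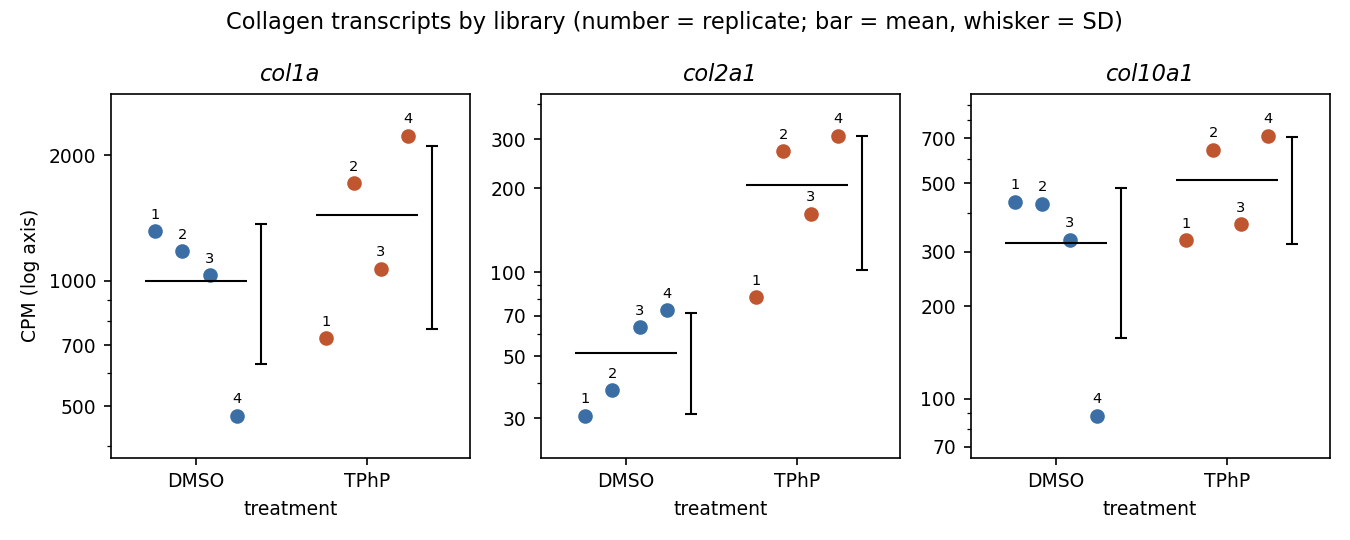
CPM (TMM-normalized, log axis, a separate scale for each gene) of *col1a*, *col2a1* and *col10a1* in each library, with DMSO in blue and TPhP in orange. Numbers are replicates, horizontal bars are means and whiskers are 1 SD (n = 4 per group). The *col2a1* points separate by treatment (73.0 CPM at most with DMSO, 81.5 at least with TPhP), and those of *col1a* and *col10a1* overlap.

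**Figure D2:**
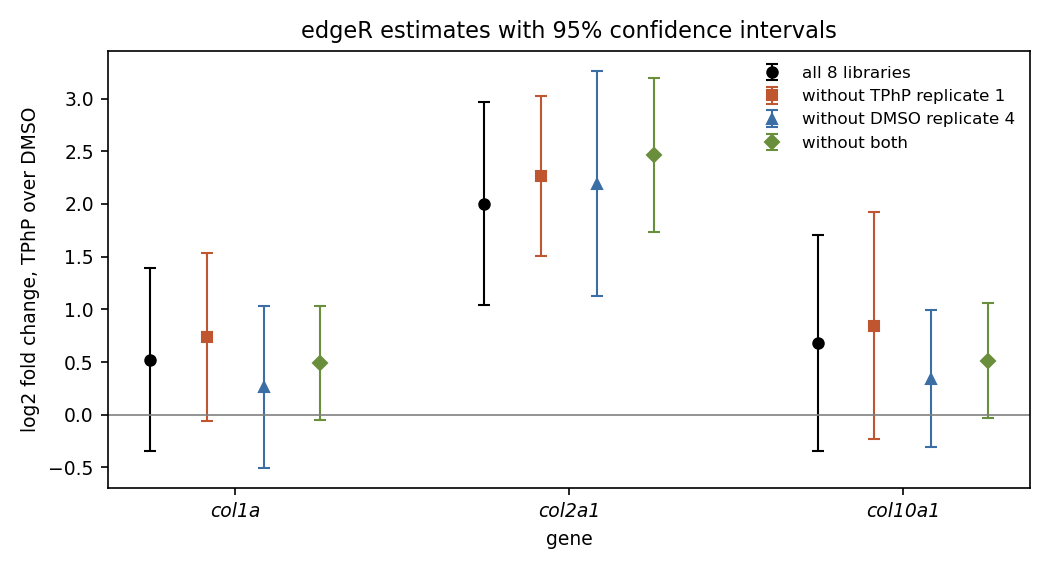
Log2 fold changes (TPhP over DMSO) from edgeR with 95% confidence intervals, for all 8 libraries, without TPhP replicate 1, without DMSO replicate 4 and without both. The *col2a1* intervals lie above 0 in all 4 fits (2.00, 2.26, 2.19 and 2.47), and those of *col1a* and *col10a1* include 0 in all 4.

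The collagens were among the more variable genes between pools of one treatment. In DMSO pools, the highest library had 2.78 times the *col1a*, 2.38 times the *col2a1* and 4.94 times the *col10a1* of the lowest. In TPhP pools these factors were 3.07, 3.78 and 2.19. The SD of log2 CPM between DMSO pools was 1.10 for *col10a1*, 0.67 for *col1a* and 0.60 for *col2a1*, against a median of 0.26 over all genes tested, and 95.9%, 88.2% and 85.2% of genes varied less. Between TPhP pools it was 0.87 for *col2a1*, 0.72 for *col1a* and 0.57 for *col10a1*, against a median of 0.28. Counting error was small beside this spread, at 0.290% to 2.81% of a collagen count. For *col1a* and *col10a1*, the spread between DMSO pools rested largely on DMSO replicate 4. The other DMSO pools had 1030 to 1316 CPM of *col1a* and 328 to 436 CPM of *col10a1*.

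*Col1a* and *col10a1* varied together between pools. Over the 8 libraries, the log2 CPM of these 2 genes had a Pearson r of 0.936 (exact permutation p = 2.48e-05, 7.44e-05 after Benjamini-Hochberg adjustment over 3 pairs of collagens) and a Spearman rho of 1.00 (exact permutation p = 4.96e-05, adjusted 0.000149). The p for r is the smallest that the pairings of 8 libraries can give, and so is the p for rho, which is two-sided with a mirror-image order. The order of the 8 pools was therefore the same for both genes, from TPhP replicate 4 at the top to DMSO replicate 4 at the bottom. Without DMSO replicate 4 and TPhP replicate 4, the libraries farthest from the median of *col10a1*, r was 0.903 (exact permutation p = 0.00972, adjusted 0.0292). Within groups, as deviations from each group's mean, r was 0.929 (exact permutation within groups, p = 0.00174, adjusted 0.00521). Both genes are scaled by the same library size, and a shared scale moves them together. With RLE factors in place of TMM factors r was 0.936, and with library sizes only it was 0.942. How much of r comes from a shared scale was not tested.

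*Col2a1* did not share one order with the others. In the DMSO pools, *col1a* and *col10a1* were highest in replicate 1 and lowest in replicate 4, and *col2a1* ran in exactly the reverse order, lowest in replicate 1 and highest in replicate 4. In the TPhP pools all 3 collagens had one order, with replicate 4 highest, then replicates 2 and 3, and replicate 1 lowest. Within groups, as deviations from each group's mean, r of *col2a1* was 0.280 with *col1a* (exact permutation within groups, p = 0.523, adjusted 0.784) and −0.039 with *col10a1* (exact permutation within groups, p = 0.892, adjusted 0.892). Pooled over the 8 libraries, r also holds the difference between treatments, and whether the orders differ between treatments was not tested.

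**Figure D3:**
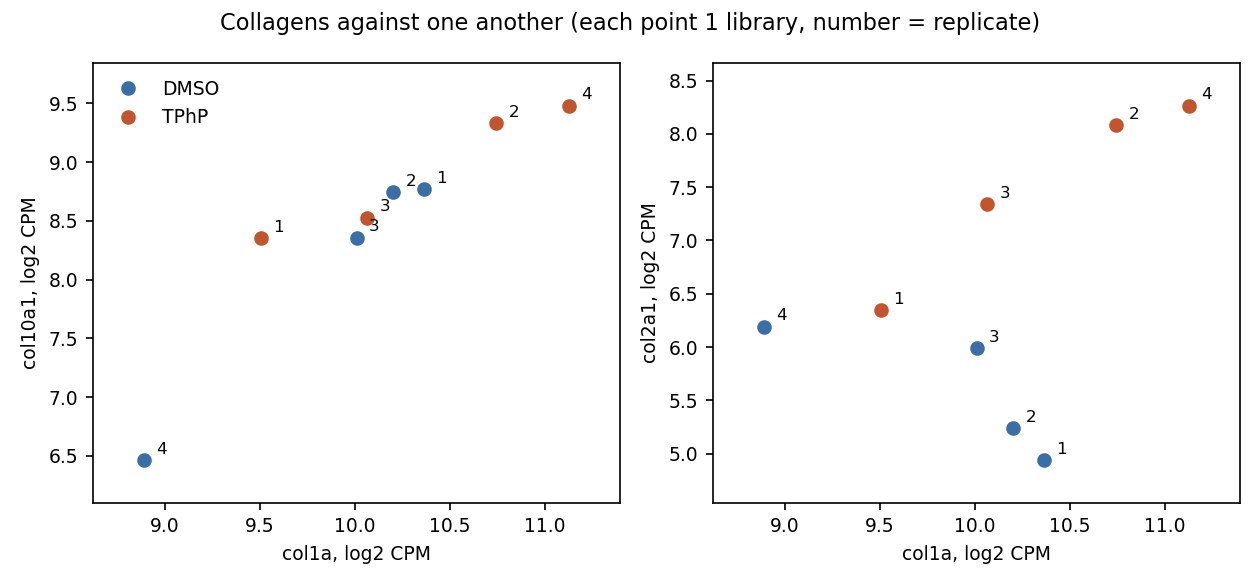
Log2 CPM of *col10a1* (left) and *col2a1* (right) against that of *col1a*. Each point is 1 library, numbered by replicate, with DMSO in blue and TPhP in orange. The left points lie along one line over both treatments (r = 0.936), and on the right the DMSO points descend from replicate 4 to replicate 1 while the TPhP points ascend from replicate 1 to replicate 4.

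The ratio of reads of one collagen to another in the same library needs no library size or normalization factor, and the lengths of the genes cancel when treatments are compared. In DMSO replicates 1 to 4 there were 2.33, 3.21, 6.18 and 15.4 reads of *col2a1* per 100 of *col1a*. The TPhP replicates 1 to 4 had 11.2, 15.8, 15.1 and 13.8. DMSO replicates 1 to 3 were below every TPhP pool, while DMSO replicate 4 was within the TPhP range. The mean log2 ratio was −4.27 ± 1.20 (SD, n = 4) in DMSO pools. In TPhP pools it was −2.85 ± 0.221 (SD, n = 4), which differs by 1.42 (exact permutation of the 70 splits, two-sided, p = 0.114, adjusted 0.229 over 3 ratios). Without DMSO replicate 4 the difference was 1.95 (exact permutation p = 0.0286, the smallest that 3 pools against 4 allow, adjusted 0.0429). That pool was the only DMSO pool not below every TPhP pool. Leaving it out makes the groups separate, so this p is no separate support.

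Set against *col10a1*, there were 7.02, 8.80, 19.4 and 82.8 reads of *col2a1* per 100 of *col10a1* in DMSO replicates 1 to 4. In TPhP replicates 1 to 4 there were 24.9, 42.1, 43.8 and 43.0. Again DMSO replicates 1 to 3 were below all TPhP pools, but DMSO replicate 4 was above them all. The mean log2 ratio was −2.49 ± 1.61 (SD, n = 4) in DMSO pools. In TPhP pools it was −1.41 ± 0.393 (SD, n = 4), which differs by 1.08 (exact permutation p = 0.229, adjusted 0.229), and without DMSO replicate 4 the difference was 1.82 (exact permutation p = 0.0286, adjusted 0.0429). Here too, leaving out the only DMSO pool not below every TPhP pool makes the groups separate. The adjusted 0.0429 needs both ratios at the smallest p, and both hold *col2a1*, so neither is separate support for the other. Neither ratio therefore shows, with all 8 libraries, that *col2a1* changed by more than the other collagens.

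The ratio of *col10a1* to *col1a* was the steadiest of the 3 among the DMSO pools. It was 33.1, 36.5, 31.8 and 18.6 reads of *col10a1* per 100 of *col1a* in DMSO replicates 1 to 4, and 44.9, 37.6, 34.5 and 32.03 in TPhP replicates 1 to 4. The treatments overlapped, with DMSO replicate 4 lowest and TPhP replicate 1 highest. The difference in mean log2 ratio was 0.34 (exact permutation p = 0.200, adjusted 0.229), and 0.13 without DMSO replicate 4 (exact permutation p = 0.429, adjusted 0.429).

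**Figure D4:**
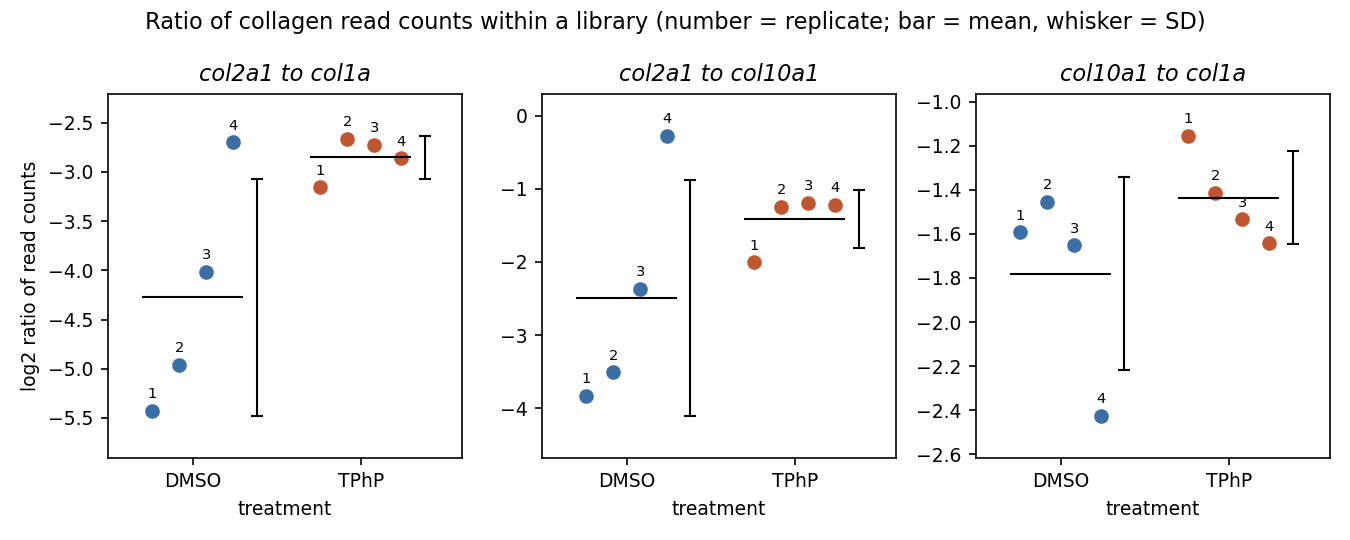
Log2 ratio of read counts of *col2a1* to *col1a*, *col2a1* to *col10a1* and *col10a1* to *col1a* in each library (a separate scale for each ratio), with DMSO in blue and TPhP in orange. Numbers are replicates, bars are means and whiskers are 1 SD (n = 4 per group). The ratios with *col2a1* spread over 6.62-fold and 11.8-fold between DMSO pools, and over 1.41-fold and 1.76-fold between TPhP pools. DMSO replicate 4 is the highest DMSO pool in both of these ratios.

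Each collagen was also set against every other gene that passed the filter, by Pearson r of log2 CPM over the 8 libraries, as a description. Of 15892 genes, 0.900% lay nearer to *col10a1* than *col1a* did, and 1.30% nearer to *col1a* than *col10a1* did. By their nearness to *col2a1*, *col1a* ranked 4585 and *col10a1* ranked 5246 of 15892. The gene with the highest r to *col1a* was ENSORLG00000011584 (r = 0.998), which the counts and annotation used here pair with no name. It had 53.7 to 132 CPM in DMSO pools and 78.0 to 197 CPM in TPhP pools, lowest in the same DMSO replicate 4. The gene with the highest r to *col2a1* was ENSORLG00000005372 (r = 0.993), also without a name. It had 17.6 to 35.6 CPM in DMSO pools and 43.0 to 124 CPM in TPhP pools. Its treatments did not overlap, as for 3.57% of all genes tested in this direction. Both genes were picked from these same libraries by their r, so their likeness to the collagens in level or separation is no separate support. These correlations hold the difference between treatments and the shared library scale as well as the variation between pools.

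Regulators of skeletal cells were also read beside the collagens, namely *runx2* and *sp7* of osteoblasts, *twist1* of mesenchymal progenitors, *sox9a* of chondrocytes and *bmp4*, a secreted signal of bone formation. With all 8 libraries, edgeR and DESeq2 called 0 of these 5 genes, against 0% and 3.82% of all genes. In edgeR, 1 of the 5 (*runx2*) had an unadjusted p under 0.05, as did 16.2% of all genes. The median log2 fold change of the 5 was 0.16. Alone among them, *runx2* separated by treatment, at 3.42 to 6.28 CPM in DMSO pools and 6.49 to 9.00 in TPhP pools. So did 3.57% of all genes tested in this direction. Without TPhP replicate 1, 1 of the 5, *twist1*, was called higher in TPhP pools by edgeR. Its log2 fold change was 0.63 ± 0.14 (SE, adjusted p = 0.0217), where 5.86% of genes were called higher. DESeq2 without that library called it higher at 0.61 (adjusted p = 0.0030), as it did 1240 of 16487 genes. Without both TPhP replicate 1 and DMSO replicate 4, edgeR called 0 of the 5, and 2281 of 15921 genes. There *twist1* had 0.55 (edgeR adjusted p = 0.0274), under the fold-change threshold. Over the libraries, *bmp4* was nearest to *col1a* among them (r = 0.972, with 0.271% of genes nearer) and *runx2* was nearest to *col10a1* (r = 0.909, 1.90% nearer). Without DMSO replicate 4, r of *runx2* with *col10a1* was 0.817, with 6.28% of genes nearer, and *bmp4* was nearer to it (r = 0.881, 2.66% nearer). Nearest to *col2a1* among the 5 was *twist1* (r = 0.684, 15.1% nearer), and without DMSO replicate 4 it was *runx2* (r = 0.708, 18.1% nearer). *Sox9a*, known in mammals to activate the type II collagen gene, had r = 0.520 with *col2a1* over the 8 libraries, and 25.3% of genes were nearer.

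The study's qPCR scaled genes to *rpl13a*, which encodes a ribosomal protein. That qPCR reported *col10a1* lower, and *col1a* and *col2a1* higher, in TPhP-treated larvae. The paper also described less signal along the arches in its *col10a1* reporter line. From its RNA-Seq it reported *col1a1* and *col2a1* significantly higher, while here *col1a* was called by neither edgeR nor DESeq2. Whether its *col1a1* is the *col1a* gene counted here is not stated. For *col10a1*, the qPCR direction is opposite to that of the counts on the *rpl13a* scale, and the reason was not tested. *Rpl13a* itself was at 2256 to 3270 CPM in DMSO pools and 2103 to 2286 in TPhP pools, with a log2 fold change of −0.40 (edgeR unadjusted p = 0.0195, adjusted p = 0.227). As log2 ratios to *rpl13a*, the difference between treatments was 2.31 for *col2a1* and 1.23 for *col10a1* (exact permutation p = 0.0286 for each, the smallest that 4 pools against 4 allow, adjusted 0.0429 over 3 genes). For *col1a* it was 0.88 (exact permutation p = 0.114, adjusted 0.114). Without DMSO replicate 4, the difference was 0.80 for *col10a1* and 2.62 for *col2a1* (exact permutation p = 0.0571 for each, adjusted 0.0857), so that neither passed the threshold. For both genes, every TPhP pool still lay above every DMSO pool that was left. The share of all genes that separate or pass on this scale was not computed. With unequal groups, another split gave a difference at least as large, so the exact permutation p of 0.0571 cannot show that the differences rest on DMSO replicate 4. Without TPhP replicate 1, the difference was 1.43 for *col10a1*, 2.71 for *col2a1* and 1.18 for *col1a* (exact permutation p = 0.0286 for each, the smallest that 3 pools against 4 allow, adjusted 0.0286). These groups are unequal too, and this p says nothing of stability. With all 8 libraries, the *col10a1* difference passed the threshold on this scale and not in edgeR on the TMM scale. These thresholds are unlike, since the exact test was adjusted over 3 genes and edgeR over all genes. The same exact permutation test on TMM log2 CPM gave an unadjusted p of 0.0286 for *col2a1*, 0.257 for *col10a1* and 0.343 for *col1a*. On the TMM scale, mean *rpl13a* was lower in the TPhP pools, with groups that overlapped, and this enters the *rpl13a* scale. With library sizes only, the log2 fold change of *rpl13a* was −0.11 (edgeR unadjusted p = 0.300).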

How the data were processed

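The authors assessed reads with FastQC, removed poor-quality bases, mapped the rest to the medaka assembly ASM223467v1 by STAR, and counted uniquely mapped reads on each gene by htseq-count. The authors deposited these counts without normalization. The strand option and annotation release of the counting are not given in the sources used here, so reads of overlapping or antisense genes are uncertain. The submitters' processing notes also name DESeq2 1.40.2 and R 4.5.1. The columns of counts were matched to samples by library name, and 0 columns were left unused.

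Here edgeR 4.0.16, run in R 4.3.3, was used with its default filter on low counts, which left 15893 of 18064 genes, with TMM factors, and with its quasi-likelihood test on treatment alone. P-values were adjusted over all genes by the Benjamini-Hochberg procedure. Log2 CPM used a prior count of 2. Ratios and correlations were tested by exact permutation in Python 3.11.15. Alternatives were DESeq2 1.42.0 with its own filtering, library sizes only, RLE factors, a minimum of 10 counts per library, all genes with any count, a block for the replicate number, libraries left out, no fold-change threshold, medians, and scaling to *rpl13a*. The pools are called biological replicates, but larvae of one pool are not separate samples. The rule for naming genes took the 3 collagens, the other genes of the study's qPCR primer list with an identifier in the counts, and the gene most correlated with *col1a* and with *col2a1*. The matrix genes and markers of other tissues planned by symbol were not analysed here, because no table used here pairs them with an identifier. The members, lists and alternatives were chosen with earlier results of these data known, the pair of libraries left out together included. DESeq2 without TPhP replicate 1, and the *rpl13a* scale and correlations with single libraries left out, were added after the values had been seen. The title of TPhP replicate 4 ends in the number 3, and its replicate number was taken from the library name.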

Additional observations from a re-analysis of the deposited data

Results flagged for a closer look

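The 3 collagen levels and 3 ratios formed 12 groups of 4 values, each searched for a single distant pool, where chance gives 0.6 groups. In 1 of them, the log2 ratio of *col2a1* to *col10a1* in TPhP pools, TPhP replicate 1 stood apart, at 24.9 reads of *col2a1* per 100 of *col10a1* against 42.1 to 43.8 in TPhP replicates 2 to 4. Its gap to the nearest pool was 0.928 of the range of the 4 pools, above Dixon's 95% critical value for 4 samples. Without that pool the difference between treatments in this ratio was 1.28 (exact permutation p = 0.229, adjusted 0.343). The low *col10a1* of DMSO replicate 4 came near the critical value and did not pass it, at 0.822.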

How the results depend on the processing

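The edgeR count of called genes, 0 over all 8 libraries (2582 at an unadjusted p under 0.05), was 618 with DESeq2, 1712 without TPhP replicate 1, 4 without DMSO replicate 4, 2281 without both and 2304 with DESeq2 without TPhP replicate 1, the last added after seeing the data. With each library omitted in turn it ran from 0 to 1712. *Col2a1* was called with DESeq2 (1.99), without TPhP replicate 1 (2.26), without both libraries (2.47) and with DESeq2 without TPhP replicate 1 (2.25). Scaled to *rpl13a*, *col2a1* (2.31) and *col10a1* (1.23) passed the threshold of the exact test, which was adjusted over 3 genes and not over all genes. On that scale, in alternatives added after seeing the data, *col1a* (1.18), *col2a1* (2.71) and *col10a1* (1.43) passed it without TPhP replicate 1, and none did without DMSO replicate 4 (0.67, 2.62 and 0.80). In the latter, *col2a1* and *col10a1* still separated by treatment. The p of such unequal groups, passing or not, says nothing of stability. The share of all genes that separate or pass on that scale was not computed. Leaving out one library at a time, the log2 fold change was 1.74 to 2.26 for *col2a1*, 0.23 to 0.74 for *col1a* and 0.34 to 0.84 for *col10a1*. The difference in log2 ratio ran from 1.04 to 1.95 for *col2a1* to *col1a*, 0.63 to 1.82 for *col2a1* to *col10a1* and 0.13 to 0.45 for *col10a1* to *col1a*. The ratios with *col2a1* passed the threshold only without DMSO replicate 4, at 1.95 and 1.82. Leaving out that pool, the only DMSO pool not below every TPhP pool, makes both ratios separate, so neither pass is separate support. Without both libraries the differences in these ratios were 2.05 and 2.02, and the smallest p that 3 pools against 3 allow is 0.1, which says nothing of stability. The correlation of *col10a1* and *col1a* was 0.926 to 0.978 in these fits. Pooled correlations of *col2a1* mix the difference between treatments with the variation within them. They were 0.460 with *col1a* and 0.383 with *col10a1*, ran from 0.194 to 0.638 and from 0.191 to 0.620 with one library left out, and turned to −0.354 and −0.231 without TPhP replicates 2 and 4, the libraries farthest from the median of *col2a1*. As deviations from group means, they were 0.280 and −0.039. The causes of these changes were not tested.

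With library sizes only, the log2 fold change of the median gene moved from 0.018 to 0.30, and the collagens had 0.84 (*col1a*), 2.27 (*col2a1*) and 1.01 (*col10a1*), none called. With a replicate block the count of called genes stayed at 0, and the log2 fold changes were 0.47 for *col1a*, 1.91 for *col2a1* (adjusted p = 0.213) and 0.76 for *col10a1*. Deviations of same-numbered libraries had correlations of 0.071, 0.21, 0.025 and −0.25 for replicates 1 to 4, and 1 of 4 DMSO libraries was nearest to its own number. The labels do not say whether a shared number marks a shared dish or batch, and so few pairs cannot settle it.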
